A study of Mus musculus with 6 samples.

Results

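The transcripts of 35 mouse genes of mitosis and cytokinesis were examined in primary dermal fibroblasts in which YAP and TAZ had been knocked out, with and without an inhibitor of STING. The genes were chosen by name for their known roles, as a list of symbols, with earlier results of these data known. All 35 were among the 13706 genes of the deposited table and were tested. They encode the cyclins and kinases that drive entry into mitosis, the chromosomal passenger complex, kinetochore and spindle checkpoint proteins, partners of the anaphase-promoting complex, spindle motors, the cytokinesis machinery, and a topoisomerase and a proliferation marker of mitotic chromosomes.

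The data were 6 libraries in 3 groups of 2. KO + H-151 cells carried R26-CAG-CreER together with the floxed alleles Yap1 fl/fl and Wwtr1 fl/fl and received 1 µM 4OH-Tamoxifen with 1 µM H-151, which blocks STING, the adaptor through which cytosolic DNA induces interferon. KO cells had that same genotype and received 4OH-Tamoxifen at 1 µM without H-151. Control cells were Yap1 fl/fl and Wwtr1 fl/fl without the Cre and were also given 1 µM 4OH-Tamoxifen. Every group was kept 72 hr in serum-containing full growth medium. The Cre is expressed from the ROSA26 locus and becomes active with tamoxifen. No group carried the Cre with intact Yap1 and Wwtr1, and none received H-151 without the Cre, so an effect of the active Cre and of YAP/TAZ loss cannot be told apart. The age of the animals is not given in the sources used here. YAP (Yap1) and TAZ (Wwtr1) are transcriptional coactivators that bind DNA through TEAD factors and are restrained by the Hippo pathway.

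As background, most genes that act in mitosis are transcribed late in the cell cycle, reach their highest RNA levels in G2 and mitosis, and are low in resting cells. Their promoters often hold a cell cycle gene homology region (CHR), bound by the DREAM complex, which represses them in resting cells, and by the MuvB complex with B-MYB and FOXM1, which activates them later. CCAAT boxes bound by NF-Y often lie upstream of it. In a dermal fibroblast culture the level of these RNAs is commonly read as a measure of how many cells are dividing. In bulk RNA, fewer cells in mitosis and less RNA per mitotic cell cannot be told apart.

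QuantSeq, which reads the 3' ends of polyadenylated RNA, gave 12444986 to 15308100 reads in listed genes per library, and 1 read corresponded to 0.0625 to 0.0871 scaled CPM, the deposited unit of reads scaled to library size. Wwtr1 had 3.07 and 4.00 scaled CPM in KO + H-151, 4.79 and 5.03 in KO and 213 and 218 in control, and Yap1 had 45.3 and 42.4 scaled CPM in KO + H-151, 66.4 and 68.3 in KO and 122 and 128 in control. Both fell in KO against control (log2 change -5.20 ± 0.13 and -0.88 ± 0.08, limma, adjusted p = 1.55e-14 and 1.34e-07). Both also fell in KO + H-151 against KO (-0.39 ± 0.13 and -0.61 ± 0.08, limma, adjusted p = 0.0258 and 8.35e-06). The groups compared for H-151 therefore differed in the RNA of the targeted genes as well, and the reason was not tested. The floxed exons are not given in the sources used here, and a 3' tag outside them would not see the deletion. The summed level of 12 fibroblast markers was 28787 and 26899 scaled CPM in KO + H-151, 40668 and 42688 in KO and 35787 and 36371 in control. Single markers ran from 5.77 (control library 2) to 16106 scaled CPM (KO library 1). In KO against control 5 rose and 2 fell (limma, adjusted p under 0.05), against 18.2% and 14.2% of all genes tested. With H-151 against KO 5 rose and 7 fell, against 19.4% and 21.4%. In KO + H-151 against control 3 rose and 5 fell, against 11.5% and 11.4%. Whether replicate libraries stem from different cultures is not stated, so p-values measure the spread between these libraries, which may be technical.

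The 35 genes stood lowest in KO + H-151. Summed over the genes, the level was 821 and 1089 scaled CPM in KO + H-151, 1375 and 1208 in KO and 1457 and 1556 in control. Both KO libraries lay below both control libraries and both KO + H-151 libraries lay below all the others. Gene by gene, the mean was lowest in KO + H-151 and highest in control for 32 of 35 genes (91.4%), an order held by 13.0% of all genes tested. The exceptions were Ccnb2, Incenp and Cenpe. For 14 of 35 genes (40%, against 3.55% of all genes tested) the libraries followed that order with no overlap between any groups. For 21 of 35 genes (60%, against 17.3%) both KO + H-151 libraries were below the other 4. As a percentage of the control mean, the KO + H-151 mean had a median over the genes of 63.2%, from 52.6% for Ect2 to 82.2% for Incenp. The KO mean was at a median of 79.9% of control, from 56.2% for Ttk to 102% for Ccnb2, with Cenpe apart at 160.4%. KO + H-151 was at a median of 78.2% of KO, from 39.4% for Cenpe to 111% for Incenp. No member was at 0 in any library, and the values ran from 3.72 to 169 scaled CPM.

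**Figure D1:**
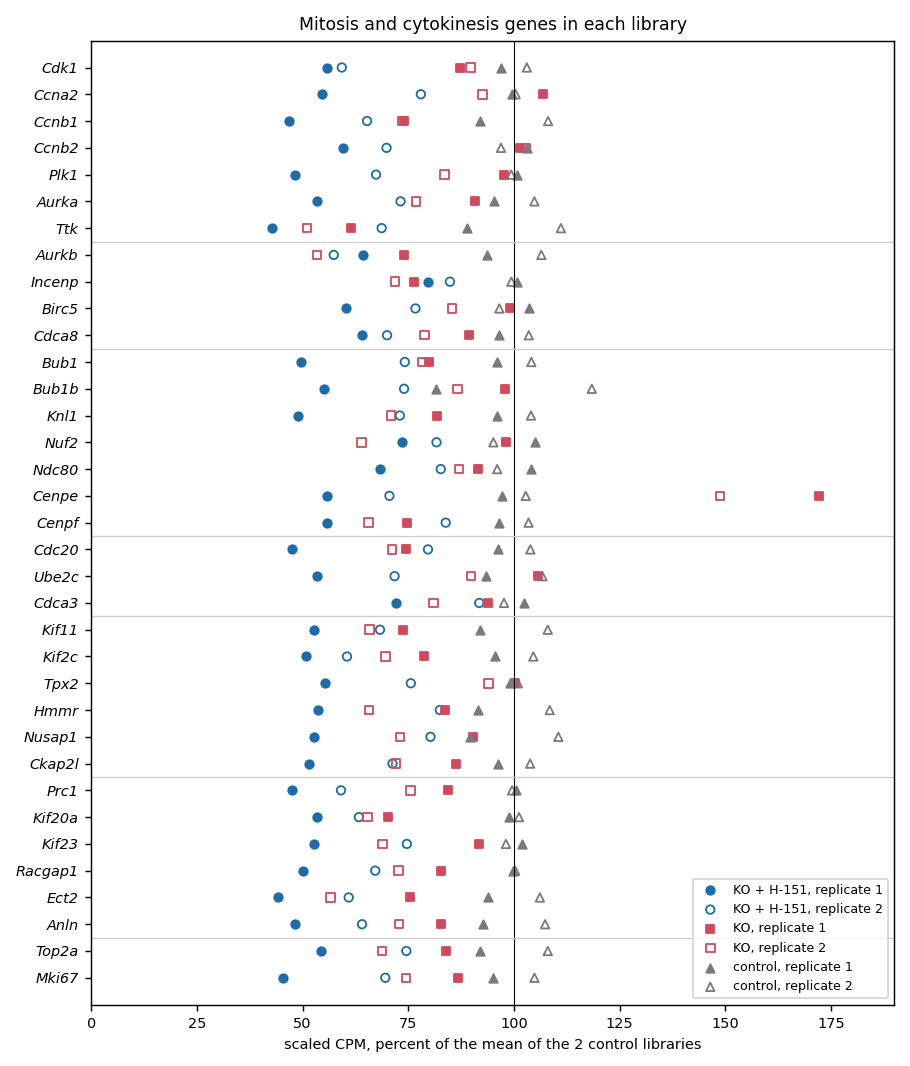
Library values of the 35 genes as a percentage of the mean of the control libraries (x axis, linear scale), with genes down the y axis grouped by role; circles are KO + H-151, squares KO and triangles control, filled for replicate 1 and open for replicate 2. KO + H-151 means lie between 52.6% and 82.2% of control, and the KO values of Cenpe lie to the right of all others.

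The proximal promoters of 8 of these genes are shown because most of the 35 genes shared an order of levels and the elements named above can be seen in them. They are 132 bases each, from 120 before the annotated start to 12 after it, written 5' to 3' on the gene's own strand, from RefSeq with coordinates of GRCm38.p6. Capitals mark a CHR (TTTGAA) or a CCAAT box (CCAAT) on either strand, so the reverse forms read TTCAAA and ATTGG.
Cdk1, chr10:69352901-69353032, minus strand: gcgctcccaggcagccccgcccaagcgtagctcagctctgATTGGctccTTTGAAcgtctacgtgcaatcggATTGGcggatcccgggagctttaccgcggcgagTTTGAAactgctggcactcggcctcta
Ccnb2, chr9:70421543-70421674, minus strand: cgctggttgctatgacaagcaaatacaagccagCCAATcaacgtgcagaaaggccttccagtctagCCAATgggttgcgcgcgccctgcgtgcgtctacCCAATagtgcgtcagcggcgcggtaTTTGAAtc
Ube2c, chr2:164769809-164769940, plus strand: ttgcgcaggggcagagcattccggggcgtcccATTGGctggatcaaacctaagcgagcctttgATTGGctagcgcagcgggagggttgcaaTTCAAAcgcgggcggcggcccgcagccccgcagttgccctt
Cdc20, chr4:118437332-118437463, minus strand: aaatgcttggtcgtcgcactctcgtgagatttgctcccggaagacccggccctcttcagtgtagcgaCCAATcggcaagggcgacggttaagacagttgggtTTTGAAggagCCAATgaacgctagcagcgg
Cenpf, chr1:189688075-189688206, minus strand: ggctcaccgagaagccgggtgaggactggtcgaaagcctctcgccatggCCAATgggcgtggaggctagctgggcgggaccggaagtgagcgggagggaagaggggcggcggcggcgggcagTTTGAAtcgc
Prc1, chr7:80294331-80294462, plus strand: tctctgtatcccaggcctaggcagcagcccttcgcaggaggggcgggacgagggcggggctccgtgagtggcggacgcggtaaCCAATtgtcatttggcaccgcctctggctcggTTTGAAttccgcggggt
Racgap1, chr15:99651645-99651776, minus strand: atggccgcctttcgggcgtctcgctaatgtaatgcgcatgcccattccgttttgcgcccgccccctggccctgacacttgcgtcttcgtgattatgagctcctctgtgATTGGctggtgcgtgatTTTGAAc
Cenpe, chr3:135212443-135212574, plus strand: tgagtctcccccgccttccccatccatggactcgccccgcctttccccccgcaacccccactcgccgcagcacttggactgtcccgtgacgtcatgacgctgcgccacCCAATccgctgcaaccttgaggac
In Cdk1, Ccnb2, Ube2c, Cdc20, Cenpf, Prc1 and Racgap1 a CHR lies close to the start with at least 1 CCAAT box on its upstream side in the window. The Cenpe window holds 1 CCAAT box and no TTTGAA. Of the 35 genes, 30 matched a promoter in the RefSeq table (250 bases before to 50 after the start). Aurkb, Kif20a, Tpx2, Ccna2 and Incenp did not. The CHR letters TTTGAA occurred in 24 of 30 genes (80%), against 17.9% of all 32851 promoters in the table and 14.1% of tested genes with a promoter. In 22 of these the match lay from 30 bases before the start onwards. The variant TTCGAA occurred in 3 of 30 (10%, against 1.56% of all promoters and 2.52% of tested genes), namely Bub1, Bub1b and Top2a. CCAAT occurred in 23 of 30 (76.7%, against 37.4% of all promoters and 42.9% of tested genes), with 16 of them holding 2 or more. The share of all genes was not computed for the CHR position or for 2 or more CCAAT boxes. Neither can therefore be called particular to these genes. Both TTTGAA and CCAAT were held by 20 (66.7%, against 6.95% of tested genes). In 1 promoter, Cdca8, a CHR and a CCAAT match overlapped. Neither CHR form was in the window of Ccnb1, Birc5, Nuf2, Cenpe or Nusap1. The TEAD letters GGAATG occurred in 3 of 30 (10%, against 14.7% of all promoters and 14.5% of tested genes), in Ube2c, Nusap1 and Racgap1. The core of the interferon-stimulated response element, GAAA and GAAA with 2 bases between, was searched after the data were seen. It occurred in 2 of 30 (6.67%, against 3.44% of all promoters and 3.84% of tested genes), in Bub1b and Cdca3. A gene with more than 1 promoter in the table was counted once, as matched if any of them held the letters. These are letter matches on both strands and not measured sites.

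**Figure D2:**
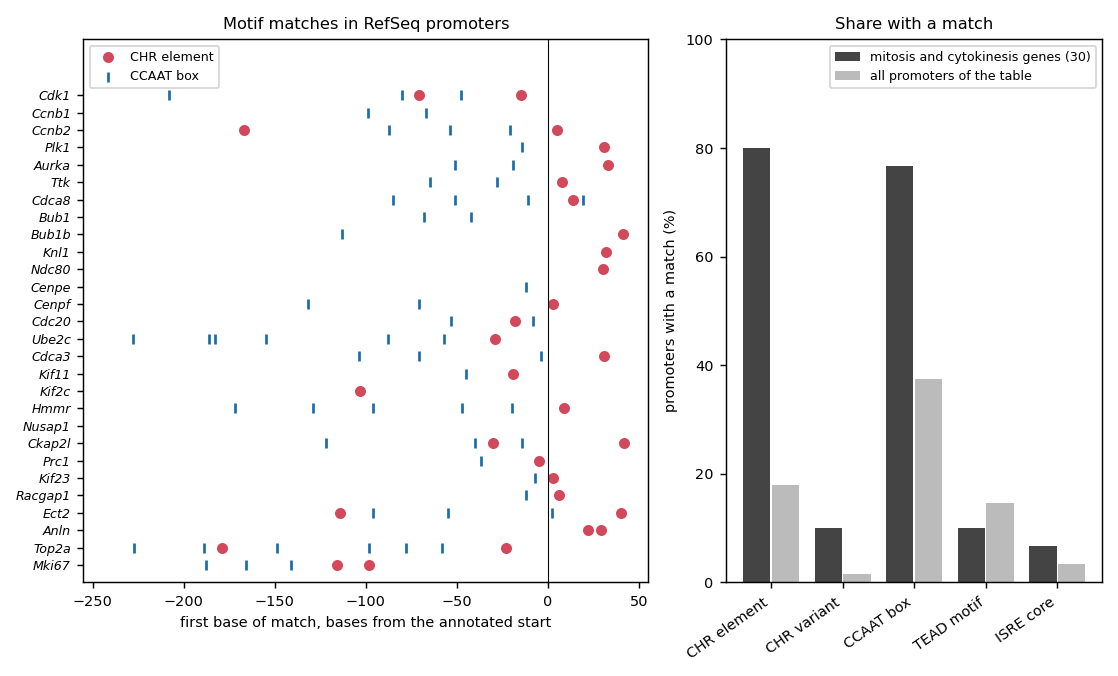
Left, position of each TTTGAA (circles) and CCAAT (bars) match in the RefSeq promoters of the 28 genes with a match of any motif searched, in 1 window per gene and in bases from the annotated start. Right, percentage of the 30 genes with a match in any of their promoters (dark bars) and of all promoters of the table (light bars), 80% against 17.9% for the CHR.

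Set against control cells, KO cells show how these RNAs stand with the Cre active on the floxed Yap1 and Wwtr1. A minority of the genes changed, most of them downwards and by less than 2-fold, and Cenpe, which encodes a kinetochore kinesin, rose. Of 35 genes, 12 fell and 1 rose (limma, adjusted p under 0.05), against 14.2% and 18.2% of all genes tested. Those that fell were Ccnb1, Ttk, Aurkb, Incenp, Cenpf, Cdc20, Kif11, Prc1, Kif20a, Racgap1, Ect2 and Top2a. The median log2 change over the 35 was -0.32, beside -0.01 over all genes tested, and 33 of 35 changes were below 0. Both KO libraries were below both control libraries for 26 genes and above them for 1, against 33.5% and 33.4% of all genes. None of the 12 fell by 2-fold, a size passed by 1.52% of all genes. The count of genes that fell rests on single libraries. The median log2 change over the 35 was -0.36 without control library 1 and -0.27 without control library 2. It was -0.43 without KO library 1 and -0.21 without KO library 2. Called without each library in turn were Incenp, Cenpe and Kif20a, and the other 10 calls were lost without control library 2 and also without KO library 2. Cdc20, Prc1, Racgap1 and Ect2 were lost without control library 1, and Ccnb1, Cdc20, Kif11 and Racgap1 without KO library 1. DESeq2 on the recovered reads called 4 lower, against 8.92% of all genes, and scaling to the total count 26, against 29.7%.

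Setting KO + H-151 cells against KO cells compares knockout cells with and without H-151. The groups also differed in Yap1 and Wwtr1 RNA, as given above, and in macrophage and adipocyte markers, given below. This comparison uses the same KO libraries as the one above. Here 16 of 35 genes fell and 0 rose (limma, adjusted p under 0.05), against 21.4% and 19.4% of all genes tested. At an unadjusted p under 0.05 the count that rose was also 0, as it was by edgeR and by DESeq2. The genes that fell were Cdk1, Ccna2, Ccnb1, Ccnb2, Plk1, Birc5, Cdca8, Bub1b, Cenpe, Ube2c, Tpx2, Ckap2l, Prc1, Racgap1, Anln and Mki67. The median log2 change was -0.34, beside 0.02 over all genes, and 34 of 35 changes were below 0. The KO + H-151 libraries themselves differed by a median of 0.41 over the 35 genes, with library 2 higher for 34. Both KO + H-151 libraries were below both KO libraries for 21 genes and above them for 1, Incenp, against 33.7% and 35.5% of all genes. Cenpe alone fell by over 2-fold, against 6.35% of all genes. The count that fell also rested on single libraries. The median log2 change was -0.24 without KO library 1 and -0.45 without KO library 2. It was -0.14 without KO + H-151 library 1 and -0.59 without KO + H-151 library 2. Called without each library in turn were 7 genes, Cdk1, Ccnb2, Plk1, Cenpe, Ube2c, Tpx2 and Prc1. The other 9 calls were lost without KO library 1, and all of these but Ccna2 also without KO + H-151 library 1. Scaling to the total count, with which the median of all genes was 0.18 in this comparison, left 8 that fell and 1 that rose (Incenp).

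KO + H-151 against control shares its libraries with both comparisons above and asks how far the treated knockout cells stand from control. Protein levels and STING activity were not examined here. All but 2 genes passed: 33 of 35 fell and 0 rose (limma, adjusted p under 0.05), against 11.4% and 11.5% of all genes tested. At an unadjusted p under 0.05 the count that rose was 0, as by edgeR and DESeq2. The 2 not past the threshold were Nuf2 (log2 change -0.32 ± 0.19, adjusted p = 0.271) and Cdca3 (-0.28 ± 0.13, adjusted p = 0.139). Both libraries of KO + H-151 were below both control libraries for all 35, against 29.5% of all genes. The median log2 change was -0.64, beside 0.00 over all genes, with a range of -0.90 to -0.28, and 0 genes passed 2-fold, against 1.23% of all genes. The median was -0.46 without KO + H-151 library 1 and -0.87 without KO + H-151 library 2. It was -0.74 without control library 1 and -0.60 without control library 2. The 15 calls lost without at least 1 library were those of Aurka, Ttk, Aurkb, Incenp, Bub1, Bub1b, Knl1, Ndc80, Cenpf, Cdc20, Kif11, Hmmr, Nusap1, Kif23 and Ect2. Genes past the threshold in both KO against control and KO + H-151 against KO were Ccnb1, Prc1 and Racgap1, which fell in both, and Cenpe, which rose in KO and fell with H-151. A fall in both was seen in 80 of all genes tested (0.586%), and the pattern of Cenpe, with KO + H-151 also below control, in 324 (2.37%).

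**Figure D3:**
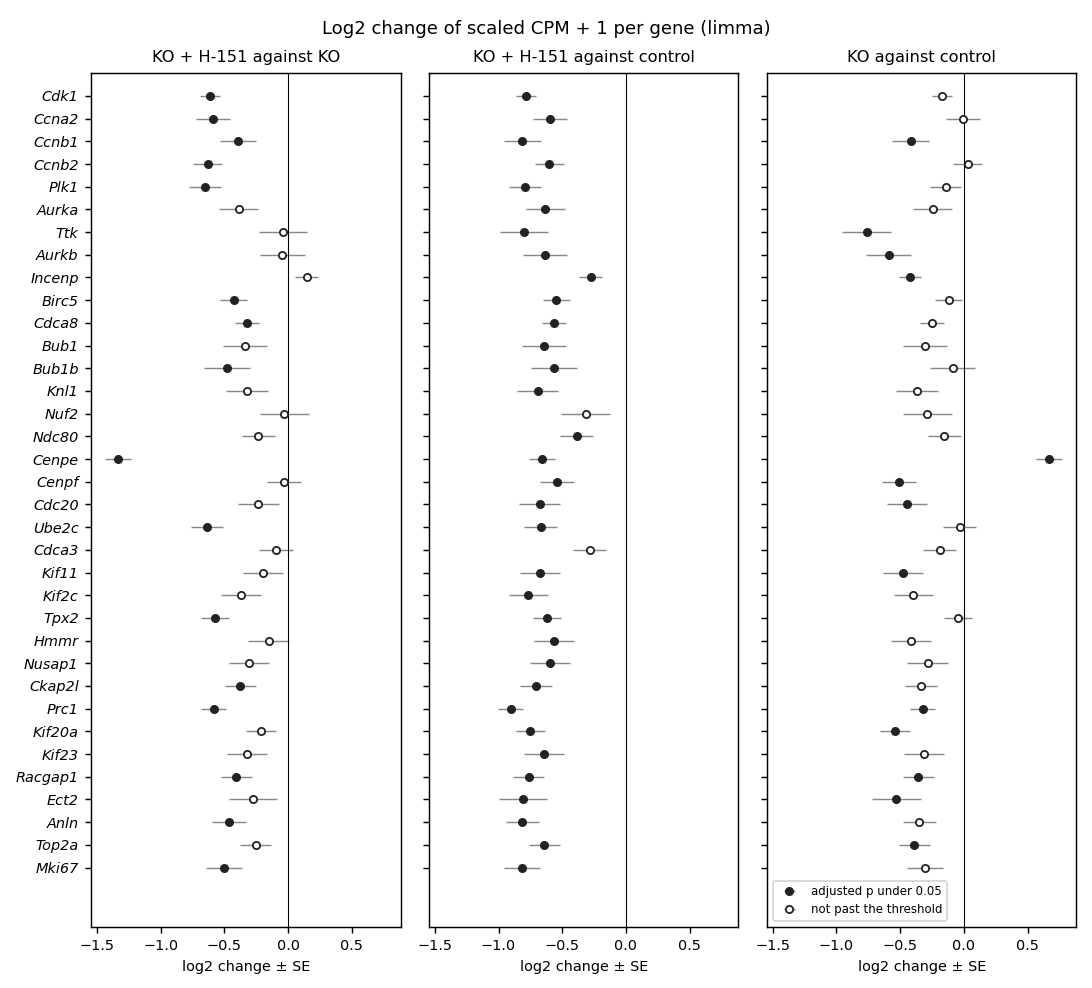
Log2 change (x axis) with its SE (bars) for each gene in 3 comparisons, from limma on log2(scaled CPM + 1) with 2 libraries per group; filled points have an adjusted p under 0.05. The panels are, from left to right, KO + H-151 against KO, KO + H-151 against control and KO against control. All 35 points lie left of 0 in KO + H-151 against control, and Cenpe lies far left of 0 with H-151 against KO and right of 0 in KO against control.

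Among the cyclins and kinases, all 7 fell in KO + H-151 against control, 5 fell against KO and 2 fell in KO against control. For this and the role groups below, the shares of all genes tested that fell were 11.4%, 21.4% and 14.2% in these comparisons. Cdk1 (chr10:69335146-69352938, minus strand, GRCm38), the kinase that drives entry into mitosis, had 47.3 and 50.3 scaled CPM in KO + H-151, 74.01 and 76.1 in KO and 82.2 and 87.4 in control. The KO + H-151 libraries stood well below the others, and KO lay just below control. It fell by 0.61 ± 0.08 with H-151 on the log2 scale (limma, adjusted p = 9.41e-06) and by 0.79 ± 0.08 against control (adjusted p = 2.20e-06), while KO against control did not pass (-0.17 ± 0.08, adjusted p = 0.103). Ccnb1, cyclin B1, had 13.2 and 18.4 scaled CPM in KO + H-151, 20.9 and 20.8 in KO and 25.99 and 30.6 in control. It was lowest in KO + H-151 and highest in control, without overlap, and fell in KO against control (-0.42 ± 0.14, adjusted p = 0.0332) and with H-151 (-0.39 ± 0.14, adjusted p = 0.0361), both calls that were lost when 1 library was left out. Ccnb2, cyclin B2, had 15.2 and 17.8 scaled CPM in KO + H-151, 25.8 and 26.1 in KO and 26.2 and 24.6 in control. KO and control overlapped (0.03 ± 0.12, adjusted p = 0.876) and the H-151 libraries stood below both groups (-0.63 ± 0.12, adjusted p = 0.000351). Ccna2, cyclin A2 of S and G2 phase, likewise overlapped between KO and control (-0.01 ± 0.13, adjusted p = 0.974), with 20.1 and 28.8 scaled CPM in KO + H-151, 39.4 and 34.2 in KO and 36.7 and 37.04 in control, and fell with H-151 (-0.59 ± 0.13, adjusted p = 0.00215). Plk1, the polo-like kinase of mitotic entry and centrosome maturation, had 27.6 and 38.7 scaled CPM in KO + H-151, 56.1 and 48.03 in KO and 57.8 and 57.1 in control. Its H-151 libraries were lowest (-0.65 ± 0.12 against KO, adjusted p = 0.000544), and KO against control did not pass (adjusted p = 0.414). Aurka, the centrosomal Aurora kinase, was at 83.7% of the control mean in KO cells and at 63.2% of it with H-151, and missed the threshold with H-151 (adjusted p = 0.0527). Ttk, the checkpoint kinase MPS1, stood lowest of the 35 in KO relative to control, with 6.86 and 11.01 scaled CPM in KO + H-151, 9.84 and 8.18 in KO and 14.2 and 17.8 in control. The KO and H-151 libraries overlapped, and it fell in KO against control (-0.76 ± 0.19, adjusted p = 0.00534), a call lost without control library 2 or KO library 2.

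Of the chromosomal passenger complex, which corrects chromosome attachment and then directs cytokinesis, all 4 members fell in KO + H-151 against control. Incenp and Aurkb fell in KO against control, and Birc5 and Cdca8 fell with H-151 against KO. Incenp, the scaffold of the complex, had 39.7 and 42.3 scaled CPM in KO + H-151, 38.1 and 35.9 in KO and 50.2 and 49.6 in control. Control was highest and the H-151 libraries lay just above KO. It fell in KO against control (-0.42 ± 0.09, adjusted p = 0.00143), without a called change with H-151 (0.15 ± 0.09, adjusted p = 0.206). Aurkb, its kinase, had 6.66 and 5.94 scaled CPM in KO + H-151, 7.66 and 5.54 in KO and 9.69 and 11.03 in control and fell in KO (-0.59 ± 0.18, adjusted p = 0.0162), with KO and H-151 libraries overlapping. Birc5, survivin, and Cdca8, borealin, target the complex to centromeres. Birc5 had 41.03 and 52.1 scaled CPM in KO + H-151, 67.4 and 58.00 in KO and 70.4 and 65.7 in control, so that KO and control overlapped and H-151 was lowest (-0.43 ± 0.11 with H-151, adjusted p = 0.00442). Cdca8 had 34.8 and 37.96 scaled CPM in KO + H-151, 48.5 and 42.8 in KO and 52.3 and 56.1 in control and fell with H-151 (-0.32 ± 0.09, adjusted p = 0.0126), while KO against control missed the threshold (adjusted p = 0.0558).

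Cenpe (chr3:135212537-135273611, plus strand, GRCm38) encodes the kinetochore kinesin CENP-E, which moves chromosomes to the spindle equator. It was the only member that rose in KO. It had 43.1 and 54.4 scaled CPM in KO + H-151, 133 and 115 in KO and 74.98 and 79.3 in control, so that the 3 groups were separate, with KO highest and H-151 lowest. In KO it was at 160.4% of control, a log2 change of 0.67 ± 0.10 (limma, adjusted p = 7.17e-05), and with H-151 at 39.4% of KO, -1.33 ± 0.10 (adjusted p = 2.00e-08). KO + H-151 was also below control (-0.66 ± 0.10, adjusted p = 0.000174). The Cenpe calls held without each library in turn and under edgeR and DESeq2. Cenpf, a large outer kinetochore protein, had 48.3 and 72.6 scaled CPM in KO + H-151, 64.7 and 56.8 in KO and 83.6 and 89.6 in control. Control was highest, the KO and H-151 libraries overlapped, and it fell in KO (-0.51 ± 0.13, adjusted p = 0.00769) with no called change with H-151 (-0.03 ± 0.13, adjusted p = 0.863). Without KO + H-151 library 1 Cenpf was higher with H-151 (0.26, adjusted p = 0.0395, limma), and without KO + H-151 library 2 it was lower (-0.32, adjusted p = 0.0115). Bub1b, the checkpoint kinase BUBR1, had 7.32 and 9.82 scaled CPM in KO + H-151, 12.97 and 11.5 in KO and 10.8 and 15.7 in control and fell with H-151 (-0.48 ± 0.18, adjusted p = 0.0437), with KO inside the range of control. Bub1, Knl1, Ndc80 and Nuf2, the Bub1 kinase, the scaffold that recruits it and 2 subunits of the NDC80 microtubule coupler, were between 4.60 scaled CPM (Nuf2, KO library 2) and 20.4 (Ndc80, control library 1). None of them passed in KO against control (lowest adjusted p = 0.0957, Knl1) or with H-151 (lowest adjusted p = 0.126, Knl1), and Bub1, Knl1 and Ndc80 fell in KO + H-151 against control, with 61.8%, 60.9% and 75.5% of control.

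Among the partners of the anaphase-promoting complex (APC/C), the ubiquitin ligase that ends mitosis, Cdc20 fell in KO against control, Ube2c with H-151 against KO, and both in KO + H-151 against control. Cdc20, its activator, had 21.3 and 35.6 scaled CPM in KO + H-151, 33.3 and 31.9 in KO and 43.01 and 46.5 in control. It fell in KO against control (-0.44 ± 0.16, adjusted p = 0.0421), while the H-151 libraries lay on both sides of KO (adjusted p = 0.263). The H-151 libraries differed by 0.72 on the log2 scale, the widest gap of any member in that group. Ube2c, its ubiquitin-conjugating enzyme, had 23.6 and 31.8 scaled CPM in KO + H-151, 46.8 and 39.9 in KO and 41.4 and 47.3 in control. KO and control overlapped, and it fell with H-151 (-0.64 ± 0.13, adjusted p = 0.000761). Cdca3, linked to degradation of the kinase Wee1 at mitotic entry, was at 81.9% of control in KO + H-151 and passed no test. Ube2c shares bases with Tnnc2 on the opposite strand, and Cdc20 with Elovl1. Opposite-strand overlaps with genes of the table also touch Nusap1, Ccna2, Cdca8, Prc1 and Kif20a, and the strand setting of the counting is not given in the sources used here, so reads of such partners could be mixed.

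All 6 spindle genes fell in KO + H-151 against control. In KO against control 1 fell (16.7%, near the 14.2% of all genes), and with H-151 against KO 2 fell (33.3%, against 21.4%). Kif11, the kinesin Eg5 that pushes spindle poles apart, had 7.91 and 10.3 scaled CPM in KO + H-151, 11.1 and 9.88 in KO and 13.8 and 16.2 in control. Control was highest, the H-151 and KO libraries overlapped, and it fell in KO (-0.48 ± 0.16, adjusted p = 0.0277). Tpx2, an activator of Aurora A that nucleates spindle microtubules, had 41.3 and 56.4 scaled CPM in KO + H-151, 74.7 and 70.1 in KO and 73.9 and 75.3 in control. KO and control overlapped (-0.04 ± 0.11, adjusted p = 0.803) and H-151 lay below both (-0.57 ± 0.11 against KO, adjusted p = 0.000562). Ckap2l, a spindle pole protein, had 32.5 and 44.96 scaled CPM in KO + H-151, 54.5 and 45.5 in KO and 60.7 and 65.5 in control and fell with H-151 (-0.37 ± 0.13, adjusted p = 0.0258). Kif2c, the microtubule depolymerase MCAK, the spindle protein Hmmr, and Nusap1, which bundles microtubules, were at 55.6%, 68.04% and 66.5% of control in KO + H-151 and passed that comparison only.

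All 6 cytokinesis genes fell in KO + H-151 against control, with a median log2 change of -0.78 beside -0.64 over all 35. In KO against control 4 fell, and 3 fell with H-151. Prc1, which bundles the antiparallel microtubules of the central spindle, had 43.8 and 54.7 scaled CPM in KO + H-151, 78.01 and 69.8 in KO and 92.9 and 92.1 in control. The groups did not overlap. It fell in KO (-0.32 ± 0.10, limma, adjusted p = 0.0177), a call lost without either control library or KO library 2. It also fell with H-151 (-0.58 ± 0.10, adjusted p = 0.000148), and KO + H-151 was below control (-0.90 ± 0.10, adjusted p = 4.83e-06). Racgap1 forms centralspindlin with Kif23. It had 22.4 and 30.1 scaled CPM in KO + H-151, 37.00 and 32.5 in KO and 44.6 and 44.9 in control, again without overlap. Racgap1 fell in both steps (-0.36 ± 0.12 in KO and -0.40 ± 0.12 with H-151, limma, adjusted p = 0.0326 and 0.0139). Its KO call was lost without any 1 of the control and KO libraries. The H-151 call was lost without KO library 1 or KO + H-151 library 1. Kif20a, the kinesin that carries the passenger complex to the midzone, had 16.1 and 19.1 scaled CPM in KO + H-151, 21.2 and 19.7 in KO and 29.8 and 30.5 in control. KO was below control (-0.54 ± 0.12, adjusted p = 0.00189), and the further difference with H-151 did not pass (-0.21 ± 0.12, adjusted p = 0.168). Ect2, the exchange factor that activates RhoA at the cell equator, had 3.72 and 5.13 scaled CPM in KO + H-151, 6.36 and 4.77 in KO and 7.90 and 8.94 in control, with the KO and H-151 libraries overlapping. It fell in KO (-0.53 ± 0.19, adjusted p = 0.043) and was at 52.6% of control in KO + H-151. Anln, the anillin scaffold of the cleavage ring, fell with H-151 (-0.46 ± 0.13, adjusted p = 0.01) and missed the threshold in KO (adjusted p = 0.0527). Kif23 passed only in KO + H-151 against control (-0.64 ± 0.16, adjusted p = 0.0069).

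Top2a, the topoisomerase that untangles chromosomes, had 85.3 and 117 scaled CPM in KO + H-151, 132 and 108 in KO and 144 and 169 in control. It fell in KO (-0.39 ± 0.12, adjusted p = 0.0232), and the KO and H-151 libraries overlapped (adjusted p = 0.114). Mki67, which encodes the Ki-67 proliferation marker, had 30.6 and 46.9 scaled CPM in KO + H-151, 58.5 and 50.2 in KO and 64.2 and 70.7 in control. The groups did not overlap, and it fell with H-151 (-0.50 ± 0.14, adjusted p = 0.00933), while KO against control did not pass (-0.31 ± 0.14, adjusted p = 0.109).

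Within a group, 1 library was the higher one for most members. In KO + H-151, library 2 was higher than library 1 for 34 of 35 genes (97.1%, against 49.6% of all genes), with a median difference of 0.41 on the log2 scale, and the summed level of the members was 1.33 times as high. In KO, library 2 was higher for 2 of 35 (5.71%, against 49.8%), with a median difference of -0.19 and a ratio of sums of 0.878. In control it was higher for 26 of 35 (74.3%, against 50.5%), with a median difference of 0.11. The 0.41 between the KO + H-151 libraries was larger in size than the members' median change with H-151 (-0.34) or in KO against control (-0.32). It was smaller than that in KO + H-151 against control (-0.64). Members share their libraries and are not independent of each other.

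Markers of other cell types moved with H-151. The summed level of 12 macrophage markers was 3718 and 2985 scaled CPM in KO + H-151, 1440.2 and 1449 in KO and 1384 and 1162 in control. All 12 rose with H-151 against KO and 11 of 12 rose in KO + H-151 against control (limma), while 2 rose and 2 fell in KO. The summed level of 6 adipocyte markers was 4232 and 3119.8 scaled CPM in KO + H-151, 1174 and 1355 in KO and 1555.5 and 1321 in control, with all 6 higher in both H-151 comparisons. In KO + H-151 the library with the lower mitotic sum, library 1, had the higher macrophage and adipocyte sums. The 8 endothelial markers summed to 27.4 and 23.1 in KO + H-151, 19.9 and 18.3 in KO and 24.1 and 21.3 in control. Of these, 2 rose and 4 fell in KO against control, 4 rose and 1 fell with H-151 against KO, and 1 rose and 1 fell in KO + H-151 against control. The 8 melanocyte and Schwann markers with a row summed to 114 and 95.3 in KO + H-151, 368 and 404 in KO and 139 and 129.6 in control. Here 6 rose and 1 fell in KO against control, 1 rose and 3 fell with H-151 against KO, and 3 rose and 3 fell in KO + H-151 against control. All genes tested had shares of 18.2% higher and 14.2% lower in KO, 19.4% and 21.4% with H-151, and 11.5% and 11.4% in KO + H-151 against control. Of the keratinocyte and skeletal muscle markers, Krt10 (7.69 to 10.97 scaled CPM) and Des (0.938 to 2.48) were used. None of the markers named here was at 0 in any library. Their part in the result was not tested.

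**Figure D4:**
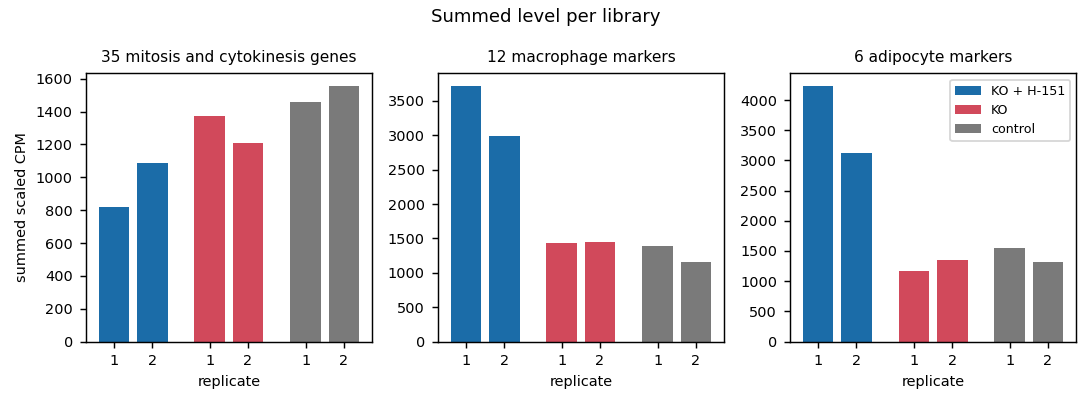
Summed scaled CPM (y axis, from 0) per library for the 35 genes, 12 macrophage markers and 6 adipocyte markers, with 1 bar per library of KO + H-151, KO and control. The mitotic sum is lowest and both marker sums are highest in the KO + H-151 libraries.

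The other genes of the cell cycle were read from lists named for their roles, with counts as higher and lower (limma, adjusted p under 0.05). Medians of each list are given in the order KO over control, KO + H-151 over KO, KO + H-151 over control, beside -0.01, 0.02 and 0.00 over all genes tested. For every list below, the shares of all genes tested that rose and fell were 18.2% and 14.2% in KO against control. They were 19.4% and 21.4% with H-151 against KO, and 11.5% and 11.4% in KO + H-151 against control. Several list counts lay near or under these shares. Of the 54 counts, 38 moved by over 1.5 times when some library was left out. Counts of 0 were also 0 by edgeR and DESeq2 and, except for 1 spindle and centrosome gene, at an unadjusted p under 0.05. In the 36 other centromere and kinetochore genes, 1 rose and 11 fell in KO + H-151 against control, with 0 and 8 in KO against control and 1 and 7 with H-151 (median log2 changes of -0.18, -0.13 and -0.33). Ska3, a subunit of the SKA complex that tracks microtubules, had 2.68 and 3.25 scaled CPM in KO + H-151, 2.96 and 3.75 in KO and 6.91 and 8.07 in control, with KO and H-151 libraries overlapping each other and below control, and fell in KO (-0.97 ± 0.19, adjusted p = 0.000833). Spc24, a subunit of the NDC80 complex, fell against control in KO + H-151 (-0.84 ± 0.14, adjusted p = 0.000336). Of 35 other spindle and centrosome genes, 0 rose and 12 fell in KO + H-151 against control, 2 and 4 in KO against control and 2 and 10 with H-151 (median log2 changes of -0.19, -0.19 and -0.31). Aspm, a spindle pole protein, fell in KO + H-151 against control (-0.62 ± 0.10, adjusted p = 0.00038), and Fam83d, which recruits casein kinase to the spindle, fell in KO (-1.15 ± 0.16, adjusted p = 2.24e-05). Cenpj, which builds centrioles, had 16.4 and 16.3 scaled CPM in KO + H-151, 54.6 and 58.2 in KO and 13.5 and 15.6 in control. The KO libraries stood above the others, and it rose in KO (1.89 ± 0.11, adjusted p = 8.62e-10) and fell with H-151 (-1.73 ± 0.11, adjusted p = 2.41e-09).

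Of 22 condensin, cohesin and separase genes, 0 rose and 9 fell in KO + H-151 against control, 2 and 2 in KO against control and 1 and 8 with H-151 (median log2 changes of -0.15, -0.14 and -0.22). In KO 9.09% rose and 9.09% fell, under the 18.2% and 14.2% of all genes. With H-151 36.4% fell, against 21.4% of all genes, and 40.9% fell in KO + H-151 against control, against 11.4%. Pttg1, securin, which holds separase inactive, had 79.05 and 70.03 scaled CPM in KO + H-151, 145 and 159 in KO and 67.4 and 65.9 in control, so that KO stood above the others. It rose in KO (1.17 ± 0.08, adjusted p = 5.71e-09) and fell with H-151 (-1.02 ± 0.08, adjusted p = 3.00e-08). Sgo1, the shugoshin that guards centromeric cohesin, fell in KO + H-151 against control (-0.87 ± 0.16, adjusted p = 0.000858), as did Smc4, a condensin core subunit (-0.32 ± 0.07, adjusted p = 0.00185). Of 17 APC/C subunits and partners, 0 rose and 3 fell in KO + H-151 against control, 0 and 2 in KO against control, and 2 rose and 0 fell with H-151 (median log2 changes of -0.09, -0.05 and -0.13). Fbxo5, the APC/C inhibitor EMI1, had 7.19 and 8.63 scaled CPM in KO + H-151, 7.31 and 8.01 in KO and 13.5 and 15.5 in control, below control in both KO groups, and fell in KO (-0.84 ± 0.16, adjusted p = 0.000502). The mitotic entry switch (17 genes) had 0 higher and 6 lower in KO + H-151 against control, 3 and 4 in KO against control and 1 and 4 with H-151 (median log2 changes of -0.23, -0.03 and -0.40). Gtse1, which binds microtubules and p53, rose in KO (0.44 ± 0.11, adjusted p = 0.00387, and 0.0536 without KO library 2) and fell with H-151 (-0.85 ± 0.11, adjusted p = 7.33e-06), as did Wee1, the kinase that holds CDK1 inactive (0.57 ± 0.13 in KO and -0.69 ± 0.13 with H-151, adjusted p = 0.00227 and 0.000401). In the 12 other cytokinesis and abscission genes with a row, 0 rose and 2 fell in KO + H-151 against control, 1 and 1 in KO, and 1 and 2 with H-151 (median log2 changes of 0.09, -0.17 and -0.07). Cit, the citron kinase of the midbody, fell in KO + H-151 against control (-0.60 ± 0.16, adjusted p = 0.0148), a call lost when a control library or KO + H-151 library 1 was left out.

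Among 34 DNA replication genes, which act in S phase, 0 rose and 14 fell in KO + H-151 against control, 4 and 6 in KO against control and 1 and 5 with H-151 (median log2 changes of -0.23, -0.14 and -0.28). In KO 11.8% rose and 17.6% fell, against 18.2% and 14.2% of all genes. With H-151 14.7% fell, under the 21.4% of all genes, while 41.2% fell in KO + H-151 against control, against 11.4%. Ccne1, cyclin E1, which starts S phase, had 12.2 and 11.6 scaled CPM in KO + H-151, 60.9 and 55.2 in KO and 17.02 and 21.2 in control. KO stood above the others, and it rose in KO (1.56 ± 0.12, adjusted p = 2.92e-08), fell with H-151 (-2.20 ± 0.12, adjusted p = 3.04e-10) and lay below control with H-151 (-0.64 ± 0.12, adjusted p = 0.00104). Mcm6, a subunit of the replicative helicase, had the same order (1.02 ± 0.09 in KO, -1.24 ± 0.09 with H-151, adjusted p = 1.80e-07 and 1.38e-08). Tyms, thymidylate synthase, fell in KO + H-151 against control (-0.54 ± 0.10, adjusted p = 0.00105). In the 13 G1 cyclins, CDKs and inhibitors, 5 rose and 3 fell in KO against control, 3 rose and 4 fell with H-151, and 2 rose and 0 fell in KO + H-151 against control (median log2 changes of 0.10, -0.10 and -0.01). Cdkn1c, the CDK inhibitor p57, had 35.5 and 33.8 scaled CPM in KO + H-151, 11.3 and 14.1 in KO and 19.6 and 16.7 in control. It was highest with H-151 (1.39 ± 0.13 against KO, adjusted p = 2.41e-07; 0.90 ± 0.13 against control, adjusted p = 9.46e-05). Cdkn2a, the locus of p16 and p19ARF, rose in KO (0.81 ± 0.13, adjusted p = 0.000183).

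Regulators of mitotic transcription include the DREAM, MuvB, E2F and NF-Y genes. Of 23, 3 rose and 1 fell in KO + H-151 against control, 4 and 3 in KO against control and 4 and 5 with H-151, with median log2 changes of -0.05, 0.01 and 0.01. In KO 17.4% rose and 13.0% fell, near the 18.2% and 14.2% of all genes. With H-151 17.4% rose and 21.7% fell, near 19.4% and 21.4%. Rbl1, the pocket protein p107 of the DREAM complex, had 8.56 and 10.7 scaled CPM in KO + H-151, 28.5 and 24.2 in KO and 9.47 and 9.44 in control, so that KO stood apart. It rose in KO (1.38 ± 0.14, adjusted p = 1.19e-06) and fell with H-151 (-1.37 ± 0.14, adjusted p = 1.11e-06). Lin54, the MuvB subunit that contacts the CHR, moved the same way (0.76 ± 0.12 in KO and -0.73 ± 0.12 with H-151, adjusted p = 7.74e-05 and 9.72e-05). Rbl2, the pocket protein p130 typical of resting cells, rose in KO + H-151 against control (0.42 ± 0.09, adjusted p = 0.00286). Foxm1 and Mybl2, which encode the activators FOXM1 and B-MYB, were named outside the rule for this list after their values were seen. Foxm1 had 11.5 and 15.8 scaled CPM in KO + H-151, 18.7 and 17.5 in KO and 17.1 and 16.8 in control, and its lower level with H-151 (-0.40 ± 0.14, adjusted p = 0.0362) was not called without KO library 1, KO library 2 or KO + H-151 library 1, nor by DESeq2, with total-count scaling, without the variance trend or with only these groups in the fit. Mybl2 had 0.980 and 1.25 scaled CPM in KO + H-151, 1.48 and 1.70 in KO and 1.35 and 1.87 in control, and passed no test.

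**Figure D5:**
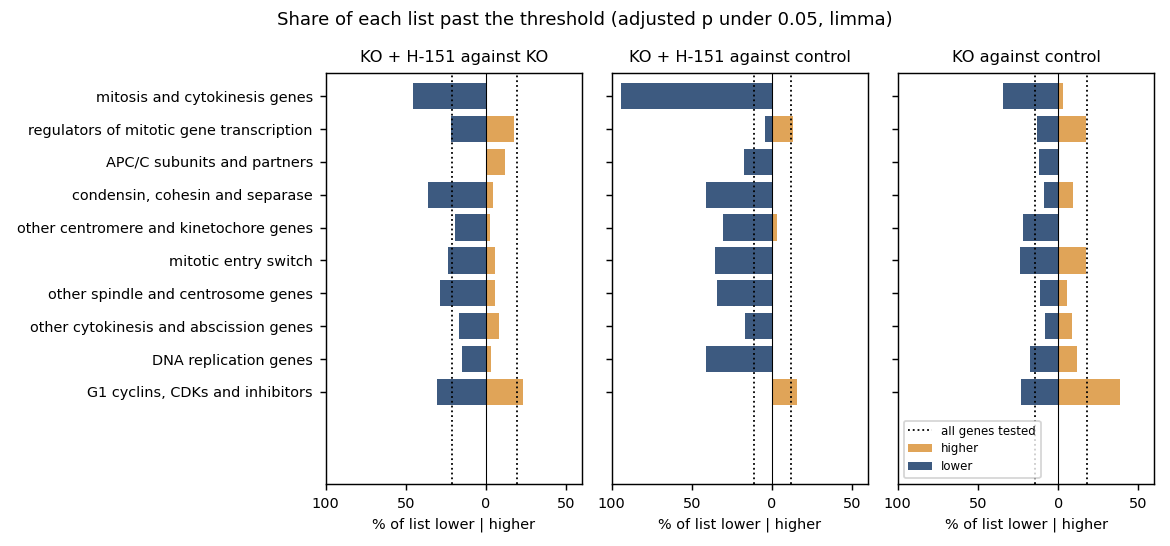
Percentage of each gene list that was lower (left of 0) or higher (right of 0) past the threshold in 3 comparisons; dotted lines give the share of all genes tested. The 35 mitosis and cytokinesis genes form the top row, with 94.3% lower in KO + H-151 against control.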

How the data were processed

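QuantSeq 3' libraries were made from total RNA with a Lexogen kit, per the labels' protocols. The inhibitor is H-151 in the sample labels and H-15 in the treatment text. STAR 2.5.3a, featureCounts, edgeR and the mm10 build are named in the submitters' processing notes; the gene annotation, strand setting and any filter on low genes are not given in the sources used here. The authors deposited a scaled signal (CPM with an effective library size) with 3 decimals for 13706 gene symbols in 6 libraries. All values of a column were whole multiples of 1 step within 0.0006, so whole reads were recovered (100% of values, 12444986 to 15308100 reads per library). The columns sum to 955838 to 1083570, so the values are called scaled CPM, and the tests planned for CPM were kept.

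Values were transformed to log2(scaled CPM + 1), which understates changes of low genes. Genes at 1 or more in at least 2 libraries were tested (13648), with limma 3.58.1 in R 4.3.3, 1 mean per group over all 6 libraries, a variance trend (3 residual degrees of freedom, 15.7 after moderation) and Benjamini-Hochberg adjustment over all genes with a threshold of 0.05. "Rose" and "fell" mean past it. Alternatives were other pseudocounts, filters and scalings, fits of only the groups compared or without the trend, and a replicate block. Others were each library left out, a 2-fold minimum, and edgeR 4.0.16 and DESeq2 1.42.0 on the recovered reads. Of these, edgeR called 14, 16 and 33 genes lower in the 3 comparisons, against 13.6%, 21.2% and 11.6% of all genes. The procedure was tested on simulated data in which genes varied independently. That test does not cover a shift shared by the members within a library. Library precision is that of 246 to 336 median reads per gene, and SE cover the spread between libraries.

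The 35 genes, the other gene lists and the markers were chosen with earlier results of these data known. All members are accounted for. From each other list at most 3 genes are named in a comparison, those with the smallest p in any comparison, with Yap1 and Wwtr1 as a check; exceptions are marked. Of 15 other cytokinesis genes, 12 had a row under the symbol used. Gene positions are those of GENCODE M21 (GRCm38) and promoters those of RefSeq (GRCm38.p6). Levels are given as the values of the 2 libraries of a group, and percentages of control or KO are of group means. Log2 changes of single genes in the main fit are given with SE. Medians, ranges and changes under alternatives are given without it.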

Additional observations from a re-analysis of the deposited data

How the results depend on the processing

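The counts of genes past the threshold depended on the spread estimate and on single libraries, and the cause was not tested. In KO against control 12 genes fell. They numbered 19 with quantile normalization, against 21.9% of all genes, and 26 with total-count scaling, against 29.7%. With only these groups in the fit they numbered 21, against 15.9%. Without the variance trend 4 fell, against 11.8%, and with DESeq2 4, against 8.92%. A 2-fold minimum left 0 that fell, against 1.52%, and 0 that rose. With H-151 against KO (16 fell, 0 rose) they numbered 8 with total-count scaling, 8 without the trend and 1 at 2-fold, and 1 rose with either total-count scaling (Incenp, 0.32, adjusted p = 0.00733, limma) or quantile normalization (Incenp, 0.23, adjusted p = 0.0484). In KO + H-151 against control (33 fell) those that fell numbered 19 without the trend, against 6.87%, and 0 at 2-fold, against 1.23%. With total-count scaling the median of all genes was -0.16 in KO against control and 0.18 with H-151, beside -0.01 and 0.02, and the members' median minus that of all genes was -0.31 and -0.36, beside -0.31 and -0.35.

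Leaving out 1 library in turn gave 2 to 20 that fell in KO against control, 7 to 26 that fell and 0 to 1 that rose with H-151, and 19 to 33 that fell in KO + H-151 against control; the median log2 change with H-151 ran from -0.59 to -0.14. These fits leave 1 group with a lone library, assumed to vary like the others. Of the changes of sign, 1 passed the threshold: Cenpf with H-151 without KO + H-151 library 1 (0.26, adjusted p = 0.0395, limma), against -0.32 (adjusted p = 0.0115) without KO + H-151 library 2. In KO against control they were Ccnb2 with quantile normalization (-0.039) and total-count scaling (-0.13), and Ccna2 with DESeq2 (0.0025). With H-151 they were Cenpf with quantile normalization (0.10), and with total-count scaling Ttk (0.12), Aurkb (0.11), Nuf2 (0.12), Cenpf (0.14), Cdca3 (0.075) and Hmmr (0.020). With a library left out, the ranges that crossed 0 in KO against control were Ccnb2 -0.013 to 0.072, Bub1b -0.34 to 0.16, Ube2c -0.15 to 0.080, Ccna2 -0.11 to 0.094 and Tpx2 -0.089 to 0.0018. With H-151 they were Cenpf -0.32 to 0.26, Ttk -0.34 to 0.27, Aurkb -0.25 to 0.16, Nuf2 -0.29 to 0.23, Cdca3 -0.26 to 0.071, Hmmr -0.45 to 0.15 and Cdc20 -0.59 to 0.13.

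Replicate numbers were taken to be only names. Same-numbered libraries deviated with correlations of -0.07, -0.13 and 0.15 over the 3 comparisons. With a single difference between libraries per group, these values cannot show whether libraries were paired. With the replicate number as a block the counts that fell were 12, 16 and 33 and those that rose 1, 0 and 0, but in KO against control Ect2 missed the threshold (adjusted p = 0.0511, limma) and Anln passed it (adjusted p = 0.0489). A crossed pairing, chosen after seeing the data, gave 20 that fell and 0 that rose with H-151.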
